A study of Mus musculus with 65 samples.

Results

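The NeuroD family is represented here by 3 genes, Neurod1, Neurod2 and Neurod6, taken by symbol from the deposited expression tables, which list 10407 gene rows. The tables cover 65 single cells of CD1 mice, 1 Patch-seq library per cell, in 3 groups. There were 19 E15 progenitors transplanted into an E12 brain, 26 E15 FlashTag cells and 20 E12 FlashTag cells, named below transplanted, E15 and E12 cells. The labels give all cells as wild type neuronal progenitors and do not name the animal, litter or host of any cell, so each group counts as 1 sample and no test between groups was made. FlashTag is a fluorescent dye that labels progenitors dividing at the ventricle. The comparisons ask whether cells of the later age differ from the earlier age in these genes, and how E15 progenitors placed in the younger host compare with both.

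NeuroD proteins are basic helix-loop-helix transcription factors. They bind E-box DNA as dimers with E proteins such as Tcf3, Tcf4 and Tcf12, and Id proteins hold E proteins away from them. In the developing cortex, radial glia that express Pax6 and Sox2 switch on Neurog2, which is followed by Eomes in intermediate progenitors and by NeuroD genes and Tbr1 in young glutamatergic neurons. Neurod1 is found mainly in late intermediate progenitors and newborn neurons, whereas Neurod2 and Neurod6 stay on in differentiating projection neurons. Hes and Hey proteins, the targets of Notch signalling, repress this sequence in radial glia.

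In GENCODE vM21 (GRCm38, the mm10 sequence), each gene lies on the minus strand, has 2 exons and carries its whole coding sequence in 1 of them. Neurod1 spans chromosome 2 from 79452521 to 79456751, Neurod2 chromosome 11 from 98325415 to 98329648, and Neurod6 chromosome 6 from 55677822 to 55681263. Coding length was 1071 bases for Neurod1, 1149 for Neurod2 and 1011 for Neurod6. The sequence before each transcription start is shown because these factors bind E-boxes. The stretches come from RefSeq (GRCm38.p6), run 5′ to 3′ on the minus strand, and stop short of whichever of the RefSeq and GENCODE starts lies further upstream. For Neurod1 that is the GENCODE start, so 135 of the 250 bases before its RefSeq start are shown. They cover chr2:79456752-79456886, chr11:98329649-98329895 and chr6:55681264-55681513. Capitals mark E-boxes (CANNTG, which reads the same on both strands).
Neurod1: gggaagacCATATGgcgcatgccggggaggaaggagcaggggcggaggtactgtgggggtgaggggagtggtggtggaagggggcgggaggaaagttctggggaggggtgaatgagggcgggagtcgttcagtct
Neurod2: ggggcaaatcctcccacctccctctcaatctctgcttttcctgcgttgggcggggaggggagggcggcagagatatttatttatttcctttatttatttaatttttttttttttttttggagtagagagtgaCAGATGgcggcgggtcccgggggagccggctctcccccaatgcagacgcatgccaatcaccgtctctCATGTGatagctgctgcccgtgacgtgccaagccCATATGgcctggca
Neurod6: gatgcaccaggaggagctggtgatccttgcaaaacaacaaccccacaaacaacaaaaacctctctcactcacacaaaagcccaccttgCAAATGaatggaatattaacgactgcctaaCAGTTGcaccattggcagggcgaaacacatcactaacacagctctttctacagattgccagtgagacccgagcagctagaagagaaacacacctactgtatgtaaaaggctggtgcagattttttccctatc

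In the 250 bases before the RefSeq start, Neurod1 held 1 E-box, Neurod2 held 3 and Neurod6 held 2. Of 32851 RefSeq windows of the same length, 66.2% held at least 1 match to CANNTG, so its presence is common. CATATG, a form found 242 bases before the RefSeq start of Neurod1 and 17 bases before that of Neurod2, occurred in 3.46% of the windows. CAGATG, searched on both strands as CAGATG and CATCTG, was found 118 bases before the start of Neurod2 and in 14.4% of the windows. CAGCTG, also searched, was in 13% of the windows but not in those of Neurod1, Neurod2 or Neurod6. Neurod6 held none of these specific forms. Each of these forms is itself a CANNTG match. The matches describe the letters of these windows and not bound sites.

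Read counts were recovered from the deposited log10 values, and levels are CPM, the read count of a gene scaled by its library's total over the genes of the tables. A library held 22358 to 3622411 reads in transplanted cells, 11449 to 4560871 in E15 cells and 10928 to 1635767 in E12 cells, with medians of 166134, 998630 and 148824. Depth therefore differed between groups. In addition, 5 transplanted, 11 E15 and 0 E12 libraries held reads of more than 8000 genes. These 16 are called many-gene libraries below, and the main ratios between groups are given with and without them. Shares of cells with a read of each gene, also at common depth, are given for all libraries only. So are ratios within pools and ranges with a cell or pool left out. Sox2 had reads in 61 of the 65 cells and Pax6 in 62, as radial glial markers, and the neuronal tubulin gene Tubb3 in 61. The median summed level of 20 neuronal markers was 4510 CPM in transplanted cells, 7087 CPM in E15 cells and 1818 CPM in E12 cells. That of 20 apical progenitor markers was 7626, 5235 and 11446 CPM in the same order. Microglia and haemoglobin genes were also read in many cells. The summed level of 15 microglia markers had a median of 405 CPM in transplanted cells, 1045 CPM in E15 cells and 37.7 CPM in E12 cells, and that of 5 haemoglobin and other erythroid genes 4698, 116 and 2946 CPM. The summed level of 15 measured genes of ventral telencephalon and interneurons, a lineage other than the glutamatergic one, had a median of 1242 CPM in transplanted cells, 1386 CPM in E15 cells and 310 CPM in E12 cells. Of these 15 genes, 12 were at least 2-fold higher by summed CPM in transplanted than in E12 cells, where 22.9% of all genes were. In E15 over E12 cells 14 were, where 25.3% of all genes were. Without the many-gene libraries, 10 of 15 and 6 of 13 passing a filter of 5 CPM were, where 22.5% and 24.2% of genes were. The part of these differences in the NeuroD values was not tested.

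NeuroD reads were sparse and uneven. At least 1 of the 3 genes had a read in 12 of 19 transplanted cells (63.2%), 15 of 26 E15 cells (57.7%) and 16 of 20 E12 cells (80%). With at least 5 reads required, the counts were 6, 9 and 14 cells. All 3 genes were read together in 4 transplanted, 3 E15 and 3 E12 cells. Across the 65 cells, 22 had none of them, 18 had 1, 15 had 2 and 10 had all 3. Neurod1 was seldom read without Neurod2: 12 of the 15 cells with Neurod1 reads also had Neurod2 reads, and 11 had Neurod6 reads. Neurod2 and Neurod6 were read together in 22 cells, out of 32 with Neurod2 and 31 with Neurod6.

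**Figure D1:**
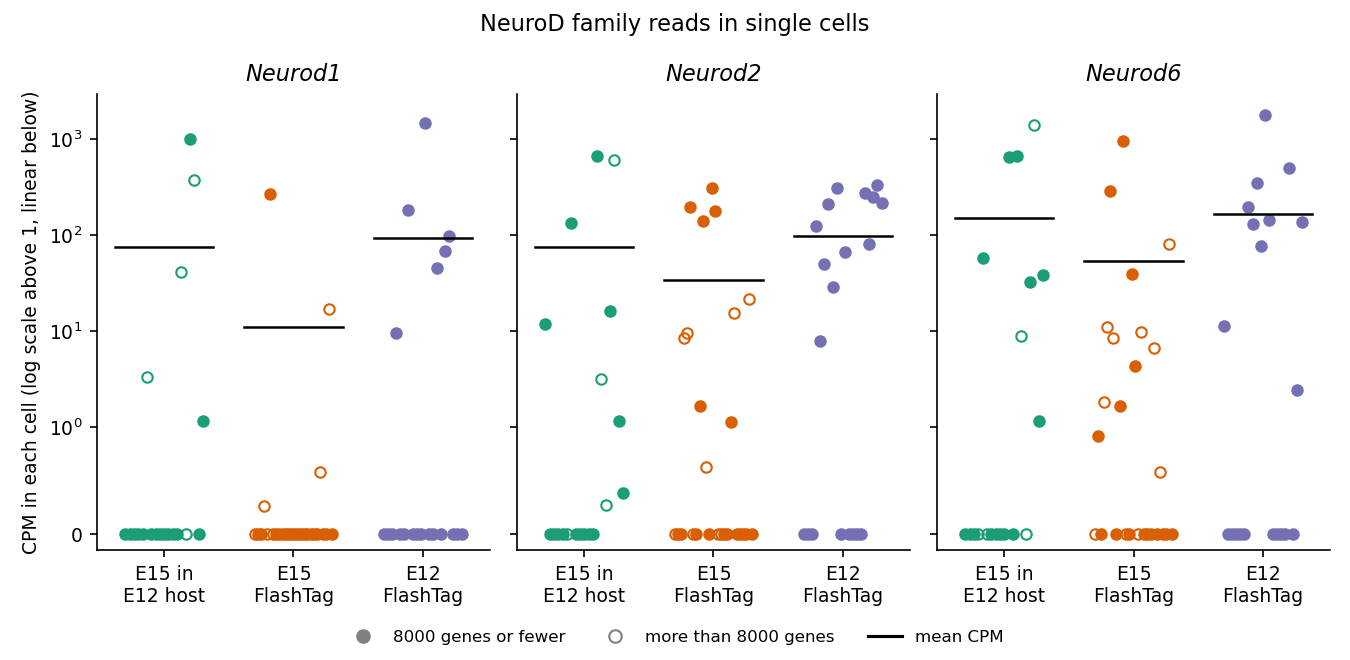
CPM of each gene in each cell, on an axis that is logarithmic above 1 CPM and linear below. Each point is 1 cell, open points are many-gene libraries, and lines are the mean CPM of the group. Cells without a read form the row at 0, and Neurod2 has 11 E12 cells above 10 CPM, against 5 transplanted and 6 E15 cells.

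Neurod1, a factor of late intermediate progenitors and newborn neurons, had reads in the fewest cells of the 3. Its 5 positive transplanted cells held 1.16, 3.37, 42.0, 374.9 and 1005 CPM, and the other 14 held none. The 4 positive E15 cells held 0.261, 0.578, 17.1 and 268 CPM. The 6 positive E12 cells held 9.54, 45.4, 69.0, 98.2, 183 and 1481 CPM. The groups overlapped, and each contained many cells at 0. The 2 lowest E15 values were single reads in many-gene libraries. Since 1 read is worth more CPM in a shallower library, values this low could not have appeared in any E12 cell. Summed over cells, Neurod1 stood at 31.4 CPM in transplanted cells (95% Poisson interval 28.4 to 34.6), 18.3 CPM in E15 cells (16.98 to 19.8) and 39.9 CPM in E12 cells (34.5 to 45.8). The mean per cell was 75.1 ± 241 CPM (SD, n = 19 cells), 11 ± 52.5 CPM (n = 26) and 94.3 ± 330 CPM (n = 20) in the same order. The intervals cover counting error only, and the SD shows that cells of 1 group differed far more than that.

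Single cells carried most Neurod1 reads. Transplanted replicate 17 held 66.2% of the reads of its group, E15 replicate 6 held 92.6% and E12 replicate 11 held 56.3%. The log2 ratio of summed CPM, with 1 CPM added to each level, was 0.74 for transplanted over E15 cells, -0.34 for transplanted over E12 cells and -1.08 for E15 over E12 cells. Without transplanted replicate 17 the first became -0.66, and without E15 replicate 6 it became 3.72. The transplanted over E12 ratio became -1.74 without transplanted replicate 17 and 0.79 without E12 replicate 11. The E15 over E12 ratio became -4.06 without E15 replicate 6 and 0.050 without E12 replicate 11. None of the 3 directions for Neurod1 was kept with every cell left out in turn.

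Neurod2, a factor of differentiating cortical projection neurons, had reads in the most cells of the 3 genes. Among transplanted cells 9 of 19 had a read, at 0.276, 0.387, 1.18, 3.18, 12.04, 16.2, 134, 612 and 667 CPM. Among E15 cells 11 of 26 had a read: the lowest was 0.629 CPM, the median of the positive cells 15.4 CPM and the highest 308.5 CPM. Among E12 cells 12 of 20 had a read: the lowest was 7.95 CPM, the median of the positive cells 169 CPM and the highest 331 CPM. Among E12 cells 0 had a single Neurod2 read, whereas 4 of the 9 positive transplanted cells and 3 of the 11 positive E15 cells did. The most extreme values were nevertheless in 2 transplanted cells, above every E12 cell.

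Summed Neurod2 stood at 39.2 CPM in transplanted cells (35.9 to 42.8), 48.0 CPM in E15 cells (45.8 to 50.2) and 93.9 CPM in E12 cells (85.5 to 103). The log2 ratio was -1.24 for transplanted over E12 cells, a 2.39-fold lower summed CPM (counting interval 2.10 to 2.72). It was -0.95 for E15 over E12 cells, 1.96-fold lower (1.76 to 2.17), and -0.28 for transplanted over E15 cells. Both ratios over E12 cells stayed below 0 with each cell left out in turn. The transplanted over E12 ratio ran from -3.83, without transplanted replicate 17, to -0.77, without transplanted replicate 15. The E15 over E12 ratio ran from -1.83, without E15 replicate 13, to -0.58, without E12 replicate 19. By contrast, the transplanted over E15 ratio ran from -2.88, without transplanted replicate 17, to 0.59, without E15 replicate 13. Transplanted replicate 17 held 86.4% of its group's Neurod2 reads.

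Neurod6, which marks postmitotic glutamatergic neurons, had reads in 8 of 19 transplanted cells, 13 of 26 E15 cells and 10 of 20 E12 cells. The transplanted cells with reads held 1.18, 8.91, 32.4, 38.7, 57.5, 651, 667 and 1410 CPM. In the positive E15 cells the lowest value was 0.578 CPM, the median 8.55 CPM and the highest 959.5 CPM. In the positive E12 cells the lowest was 2.44 CPM, the median 141 CPM and the highest 1801 CPM. Values under 10 CPM, found in 8 of 13 positive E15 cells and 1 of 10 positive E12 cells, depend on depth, since in libraries under 100000 reads a single read already exceeds 10 CPM. Summed Neurod6 was 103 CPM in transplanted cells (97.5 to 109), 68.6 CPM in E15 cells (65.9 to 71.3) and 128.7 CPM in E12 cells (119 to 139). The log2 ratios were 0.58 for transplanted over E15 cells, -0.32 for transplanted over E12 cells and -0.90 for E15 over E12 cells. Without transplanted replicate 17, which held 75.8% of its group's reads, the first became -1.34 and the second -2.24. Without E12 replicate 17 the second became 0.46. The third stayed below 0 with each cell left out, from -1.98 without E15 replicate 10 to -0.12 without E12 replicate 17.

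Because deeper libraries show more single reads, shares of cells were also put on a common depth, as the expected share of cells with a read when each library is thinned to 20000 reads. This left out 0 transplanted, 1 E15 and 2 E12 libraries below that depth. For Neurod2 the expected share was 19.2% in transplanted cells, 19.7% in E15 cells and 54.5% in E12 cells, against 47.4% (95% Clopper-Pearson interval 24.4% to 71.1%), 42.3% (23.4% to 63.1%) and 60% (36.1% to 80.9%) at full depth. For Neurod6 it was 26.5%, 16.8% and 44.2%, against 42.1% (20.3% to 66.5%), 50% (29.9% to 70.1%) and 50% (27.2% to 72.8%) at full depth. For Neurod1 it was 14%, 5.21% and 24.8%, against 26.3% (9.15% to 51.2%), 15.4% (4.36% to 34.9%) and 30% (11.9% to 54.3%). At common depth each of the 3 genes was thus expected in a larger share of E12 cells than of either other group, while the full-depth intervals of all groups overlapped.

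**Figure D2:**
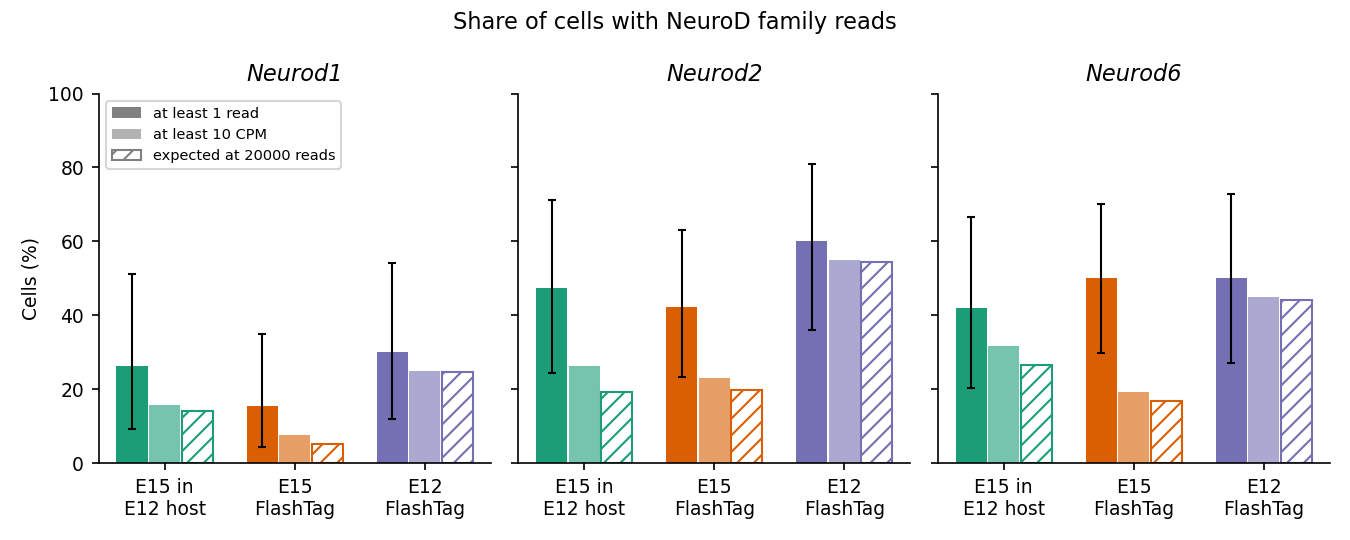
Percent of cells with at least 1 read (solid bars, with 95% Clopper-Pearson intervals), with at least 10 CPM (pale bars) and expected with a read at 20000 reads per library (hatched bars). For Neurod2 the hatched bars stand at 19.2% in transplanted, 19.7% in E15 and 54.5% in E12 cells.

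The comparison of transplanted with E15 cells had no stable direction for any of the 3 genes. By summed CPM, 0 of the 3 were 2-fold higher and 0 were 2-fold lower, where 4.71% of 10163 genes were at least 2-fold higher and 11.8% at least 2-fold lower. By mean CPM per cell, which gives each library the same weight, all 3 were at least 2-fold higher in transplanted cells, with log2 ratios of 2.66 for Neurod1, 1.14 for Neurod2 and 1.45 for Neurod6, against 12% of genes. Without the many-gene libraries, all 3 were at least 2-fold lower by summed CPM, with log2 ratios of -1.97, -3.38 and -1.62, where 28% of 9799 genes were. By mean CPM without those libraries the log2 ratios were 1.95, 0.10 and 0.26, so that 1 of the 3 was at least 2-fold higher and 0 lower, where 22.5% of 9796 genes were higher and 25.3% lower. Summed CPM without the many-gene libraries was 14.01, 13.4 and 65.3 CPM for Neurod1, Neurod2 and Neurod6 in transplanted cells, and 57.7, 148 and 202 CPM in E15 cells. Only 65, 62 and 303 reads in transplanted cells stand behind these levels.

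Transplanted cells lay below E12 cells in each of these summaries, by amounts that varied. By summed CPM, 1 of the 3 genes, Neurod2, was at least 2-fold lower, where 24.7% of 9931 genes were. By mean CPM per cell the log2 ratios were -0.33 for Neurod1, -0.36 for Neurod2 and -0.15 for Neurod6, and 0 of the 3 reached 2-fold, where 23% of genes did. Without the many-gene libraries they were -1.44, -2.72 and -0.97 by summed CPM, and 2 of the 3 were at least 2-fold lower, where 29.8% of 9594 genes were. By mean CPM without those libraries they were -0.39, -0.71 and -0.69, and 0 of the 3 reached 2-fold, where 26.7% of genes were that much lower. The directions for Neurod1 and Neurod6 turned when single E12 cells were left out, as given above.

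E15 cells also lay below E12 cells by most summaries. By summed CPM, 1 of the 3 genes, Neurod1, was at least 2-fold lower and 0 were 2-fold higher, where 20.3% of 10193 genes were lower and 25.3% higher. By mean CPM per cell all 3 were at least 2-fold lower, with log2 ratios of -2.99 for Neurod1, -1.50 for Neurod2 and -1.61 for Neurod6, where 18.6% of genes were. Without the many-gene libraries, 11 of the 26 E15 cells left the comparison and the summed ratios turned to 0.52, 0.65 and 0.65. Of these 0 reached 2-fold, where 24.2% of 9819 genes were at least 2-fold higher. Those of mean CPM stayed below 0, at -2.34, -0.81 and -0.95, and 1 of the 3 was at least 2-fold lower, where 24.4% of 9771 genes were. In that reduced set E15 replicate 6 was the only Neurod1-positive E15 cell of 15. The many-gene E15 libraries held Neurod1 at 1.93 CPM, with reads in 3 of the 11.

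**Figure D3:**
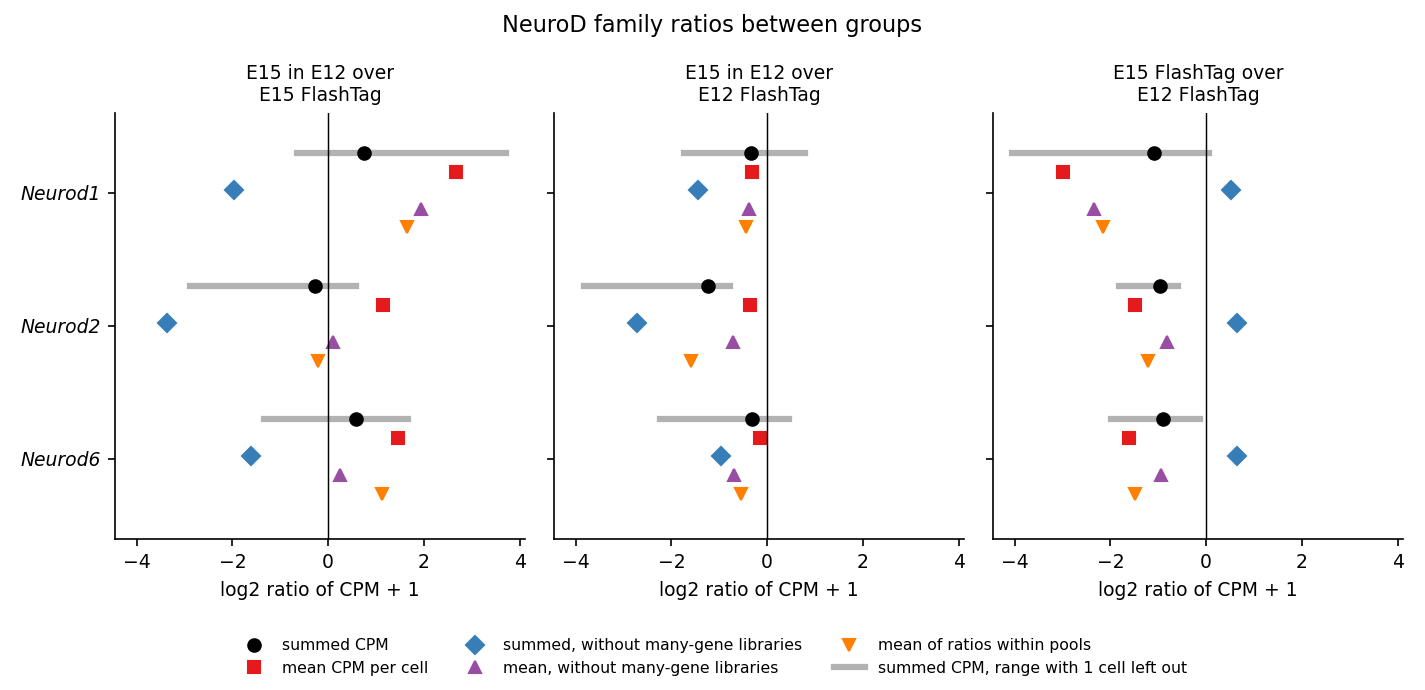
Log2 ratios of the 3 genes between groups under 5 summaries (symbols), with the range of the summed ratio when 1 cell is left out (grey bars). Symbols fall on both sides of 0 for transplanted over E15 cells, stay below 0 for transplanted over E12 cells, and for E15 over E12 cells are above 0 only for summed CPM without many-gene libraries.

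The labels put the cells in pools A to H, of which 7 held cells of all 3 groups, so the ratios were also taken within pools. For Neurod6, E15 cells were lower than E12 cells in 6 of 8 pools, higher in 0 and equal at 0 CPM in 2, with a mean within-pool log2 ratio of -1.48. For Neurod2 they were lower in 5 of 8 pools and higher in 2, with a mean of -1.22, and for Neurod1 lower in 4 and higher in 2, with a mean of -2.16. Transplanted cells were lower than E12 cells in 4 of 7 pools and higher in 3 for Neurod2 (mean -1.59), lower in 4 and higher in 2 for Neurod6 (mean -0.55), and lower in 3 and higher in 2 for Neurod1 (mean -0.44). Transplanted cells were higher than E15 cells in 4 of 7 pools and lower in 3 for Neurod2 (mean -0.21), higher in 4 and lower in 2 for Neurod6 (mean 1.12), and higher in 3 and lower in 1 for Neurod1 (mean 1.65). Pools hold few cells of a group, so each of these ratios rests on a handful of libraries. For Neurod6 in E15 over E12 cells, the ratio was -0.07 in pool A and -0.17 in pool F, against -5.54 in pool C. In pools B and C all E15 cells were many-gene libraries, and no within-pool ratio was taken without such libraries.

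The cells with the highest CPM of NeuroD genes differed in their other markers. Transplanted replicate 17, a many-gene library, had reads of all 16 measured genes of the neurogenic cascade list, summed apical markers of 3569 CPM, neuronal markers of 9338 CPM and cortical glutamatergic markers of 2080 CPM, with microglia markers at 7.10 CPM. E15 replicate 10, the cell highest in Neurod6 in its group, had neuronal markers at 14431 CPM and microglia markers at 8633 CPM. E15 replicate 13, the highest in Neurod2, had apical markers at 33665 CPM and neuronal markers at 1061 CPM. E15 replicate 6, the highest in Neurod1, had apical markers at 10558 CPM, neuronal markers at 6973 CPM and erythroid genes at 25596 CPM. E12 replicate 11, the highest E12 cell in Neurod1 and Neurod6, had apical markers at 1068 CPM, neuronal markers at 8367 CPM and erythroid genes at 21298 CPM. E12 replicate 19, the highest E12 cell in Neurod2, had neuronal markers at 8394 CPM, the highest of the E12 cells. Transplanted replicate 13, the highest in Neurod2, had neuronal markers at 4201 CPM. Transplanted replicate 16, the highest in Neurod1, had neuronal markers at 551 CPM, the lowest of the 19 transplanted cells. The cells highest in NeuroD genes by CPM thus included both cells high and cells low in neuronal markers. The part of the other cell types' RNA in these values was not tested.

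**Figure D4:**
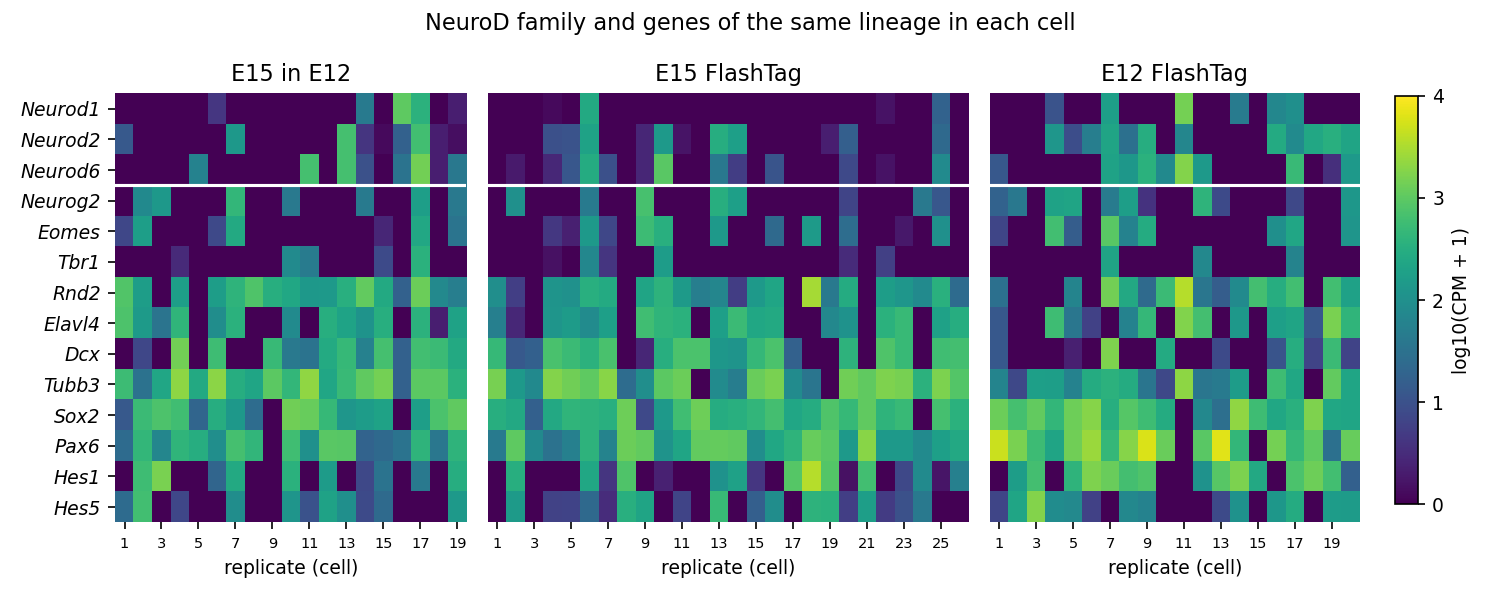
Level of the NeuroD genes (above the white line) and of other genes of the lineage in each cell, as log10(CPM + 1), with 1 column per cell. Rows below the line run from progenitor factors and neuronal genes to radial glial genes, and the 3 NeuroD rows are dark in 22 of the 65 cells.

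Among the upstream factors and partners, Eomes, the marker of intermediate progenitors, was read in 21 of the 32 cells with Neurod2, 18 of the 31 with Neurod6 and 10 of the 15 with Neurod1, against 28 of all 65 cells. Neurog2, the factor that precedes the NeuroD genes, was read in 17, 17 and 8 of these cells, against 26 of 65. Tbr1, a transcription factor of early-born deep-layer neurons, was read in 8, 11 and 6, against 14 of 65. The neuronal RNA-binding gene Elavl4 was read in 30 of the 32 cells with Neurod2, against 47 of 65. Other neuronal genes were closer to their share of all cells. Tubb3 was read in 30 of the 32, against 61 of 65, and Dcx in 24 of the 32, against 45 of 65. Genes of other lineages were read in these cells too. The microglia gene C1qc was read in 21 of 32 cells with Neurod2, 23 of 31 with Neurod6 and 11 of 15 with Neurod1. Over all cells it was read in 40 of 65. The interneuron gene Gad2 was read in 18, 21 and 10 in the same order, against 39 of 65. The Notch target Hes1 was read in 21, 18 and 9 in the same order, against 42 of 65. Depth was not equalised in these counts. Spearman's rho of log2(CPM + 1) over the 65 cells, which share depth and pools, was 0.50 between Neurod2 and Neurod6, 0.36 between Neurod1 and Neurod2 and 0.34 between Neurod1 and Neurod6.

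The genes with the most similar pattern over the 65 cells were picked among 8463 genes read in at least 20 cells. For Neurod2 they were Ube2a (rho 0.52), Eomes (0.50), Igsf8 (0.48), Nrp1 (0.47) and Elavl4 (0.44). For Neurod1 they were Tagln3 (0.45), Mcee (0.44), Armc5 (0.44), Abca2 (0.44) and Slc5a6 (0.42). For Neurod6 they included Psme2b (0.48), Gng3 (0.44), Cox8a (0.42) and Lzts1 (0.40). Nrp1 encodes a receptor of axon guidance, Tagln3 a neuronal actin-binding protein and Gng3 a neuronal G protein subunit. Other neuronal genes stood lower: Tubb3 had a rho of 0.06 with Neurod2, 0.20 with Neurod6 and 0.25 with Neurod1. Dcx had 0.05, 0.20 and 0.17 in the same order. With Neurod2, Tubb3 and Dcx ranked 3247 and 3473 of the 8463 genes. Without the many-gene libraries, Tubb3 and Dcx had a rho of 0.24 and 0.20 with Neurod2. Over the 49 libraries that are not many-gene, the highest were Elavl4, Mex3b, BC004004, Nrp1 and Ube2a for Neurod2 (rho 0.58 to 0.54), of which 3 were also in the first set. For Neurod6 they included Psme2b, Zfand5, Olfr1152 and N4bp1 (0.51 to 0.45), of which Psme2b was also in the first set. For Neurod1 they were Bpgm, Tmub2, Epb41l4aos, Tagln3 and Bfar (0.50 to 0.44), sharing 1. By Pearson's r of the deposited values over the 65 cells, the 5 most similar genes shared 2 with the first set for Neurod2, 0 for Neurod1 and 0 for Neurod6. These are modest values in sparse data. Of the radial glial genes, Sox2 had a rho of -0.22 with Neurod6 and -0.16 with Neurod2, and Pax6 -0.22 with Neurod1 and 0.07 with Neurod2.

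Of 21 listed genes of the neurogenic cascade other than the members, 16 were in the tables. In transplanted over E15 cells 10 were higher and 6 lower, with a median log2 ratio of 0.16 against -0.08 over all genes. Of these 16, 0 were at least 2-fold higher and 1 was at least 2-fold lower, where 4.71% of all genes tested were higher and 11.8% lower by that much. That one was Btg2, an antiproliferative gene of neurogenic divisions, at 16.99 CPM in transplanted cells and 62.1 CPM in E15 cells. In transplanted over E12 cells 10 of the 16 were above 0 and 6 below, and their median log2 ratio was 0.24, against -0.09 over all genes. In E15 over E12 cells 8 were above 0 and 8 below, and the median was 0.02, against -0.03 over all genes. Each of these 3 medians, taken by summed CPM, changed sign without the many-gene libraries, to -0.027, -0.33 and -0.037. By mean CPM per cell the medians kept their signs. They were 0.06, 0.32 and -0.16 with all cells and 0.006, 0.14 and -0.23 without those libraries.

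Neurog2 and Eomes, like Neurod2, were lowest in transplanted and highest in E12 cells by summed CPM. Neurog2 was at 26.4 CPM in transplanted, 44.1 CPM in E15 and 90.2 CPM in E12 cells, and Eomes at 26.4, 53.8 and 87.8 CPM. For both, the E15 over E12 ratio turned positive without the many-gene libraries, to 0.69 for Neurog2 and 0.74 for Eomes. With all cells, the log2 ratios of the 3 members were below 0 in both comparisons over E12 cells. Of the 16 cascade genes, 10 were above 0 in transplanted over E12 cells and 8 in E15 over E12 cells. Dcx and St18 were above 0 in both, in contrast to the members. Dcx, a microtubule-associated protein of migrating neurons, was at 491 CPM in transplanted cells, 487 CPM in E15 cells and 115 CPM in E12 cells. St18, a zinc-finger factor, was at 70.3 CPM in transplanted cells, 49.4 CPM in E15 cells and 1.62 CPM in E12 cells. That E12 level is below 5 CPM, so the St18 ratios over it rest on few E12 reads. Of the 49 libraries that are not many-gene, 11 had St18 reads. Without the many-gene libraries the log2 ratio over E12 cells was 1.23 in transplanted and 0.83 in E15 cells for Dcx, and 4.05 and 3.69 for St18. In E15 over E12 cells the contrast ended there, since the ratios of Neurod1, Neurod2 and Neurod6 were then also above 0, at 0.52, 0.65 and 0.65.

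**Figure D5:**
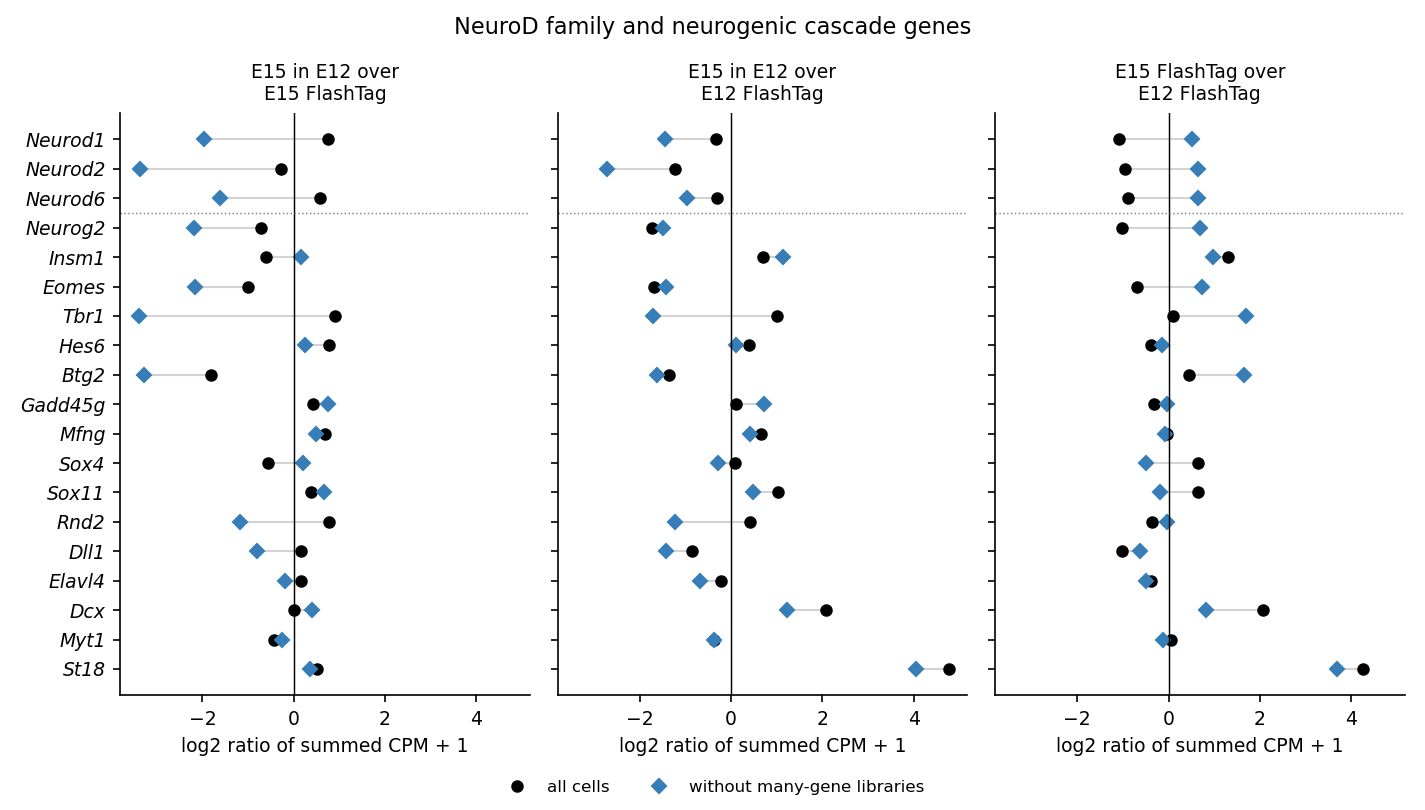
Log2 ratios of summed CPM + 1 for the 3 NeuroD genes (above the dotted line) and the 16 measured cascade genes, over all cells (circles) and without many-gene libraries (diamonds). With all cells, 10 of the 16 cascade genes lie to the right of 0 in transplanted over E12 cells and 8 in E15 over E12 cells. St18 and Dcx lie to the right of 0 in both comparisons over E12 cells, and the NeuroD genes lie to the left with all cells.

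Of the E proteins that pair with NeuroD factors, Tcf3 was at 229 CPM in transplanted cells, 233 CPM in E15 cells and 429 CPM in E12 cells. Tcf4 was at 926, 1019 and 1928 CPM and Tcf12 at 221, 111 and 92.1 CPM in the same order. By summed CPM, Tcf3 and Tcf4 were thus lower in transplanted than in E12 cells and Tcf12 higher. These directions held without the many-gene libraries, at -0.39, -0.66 and 1.82. By mean CPM per cell, 1 of the 3 was higher and 2 were lower, and 0 reached 2-fold either way. Of all genes, 21.4% were at least 2-fold higher by mean CPM and 23% lower. Without the many-gene libraries, 0 of the 3 reached 2-fold by mean CPM, where 21.2% of genes were higher and 26.7% lower. Of 8 listed inhibitors of helix-loop-helix activity, 7 were in the tables. Among them 5 were lower and 2 higher in transplanted than in E12 cells, with a median log2 ratio of -1.003, against -0.09 over all genes. Those higher were Id1, at 7.55 CPM in transplanted and 3.04 CPM in E12 cells, and Id3, at 22.96 and 1.21 CPM. With the many-gene libraries left out, 6 of the 7 passed the 5 CPM filter, with 3 above and 3 below 0. Those above 0 were Id1 (0.61), Id2 (0.19) and the Notch target Hes5 (0.21), and Id3 no longer passed the filter. The Notch target Hes1 was at 98.3 CPM in transplanted cells, 97.2 CPM in E15 cells and 547 CPM in E12 cells. Hey1 was at 39.4, 22.04 and 190 CPM and Id4 at 67.0, 182 and 264 CPM in the same order. For Hes1, Hey1 and Id4 the log2 ratio of transplanted over E12 cells stayed below 0 without the many-gene libraries, at -1.24, -1.05 and -1.35.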

How the data were processed

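Per the labels' protocols, cells were collected singly and libraries were built with the SMART-Seq v4 3′ DE and Nextera XT kits. No molecular identifiers were used. Per the submitters' processing notes, STAR, HTSeq and mm10 were used, with no versions given. The values deposited by the authors are log10 residuals, as read from the values themselves: log10 of 1 plus counts per 100000 reads, centred per gene, with 2 further directions over cells removed. The design had allowed for counts, and read counts were recovered from the log10 values. All 356667 values above 0 lay within 0.01 of a whole number, and the procedure was tested on simulated data. Of the variance in genes detected per cell, 74.5% lay in the removed part, as did 24.2% of that in E12 membership.

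CPM used the reads of all table genes as the total. Group levels sum reads over cells, and ratios add a pseudocount of 1 CPM. Genes below 5 CPM in both groups were left out of shares of genes at 2-fold. Intervals are at 95%, exact Poisson for levels, conditional binomial for ratios and Clopper-Pearson for shares, and cover counting error only. Levels were not compared between genes. Named are the 3 members, the 5 genes most like each, over all libraries and over those with at most 8000 genes, and genes of fixed lists, and 1 gene of the likeness sets is not reported here. Members and lists were chosen with earlier results of these data known. Python 3.11.15, NumPy 2.4.6 and SciPy 1.17.1 were used.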

Additional observations from a re-analysis of the deposited data

How the results depend on the processing

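No paired analysis was possible because the replicate numbers only name cells, and each group counts as 1 sample. Values are log2 ratios, for transplanted over E15, transplanted over E12 and E15 over E12 cells in that order. By mean CPM per cell they were 2.66, -0.33 and -2.99 for Neurod1, 1.14, -0.36 and -1.50 for Neurod2, and 1.45, -0.15 and -1.61 for Neurod6. With each cell scaled to 20000 reads they were 2.61, -0.48 and -3.09, then 1.08, -0.51 and -1.59, then 1.40, -0.31 and -1.70. Without many-gene libraries they were -1.97, -1.44 and 0.52, then -3.38, -2.72 and 0.65, then -1.62, -0.97 and 0.65. By mean CPM without those libraries, chosen after seeing the data, they were 1.95, -0.39 and -2.34, then 0.10, -0.71 and -0.81, then 0.26, -0.69 and -0.95. As means within pools they were 1.65, -0.44 and -2.16, then -0.21, -1.59 and -1.22, then 1.12, -0.55 and -1.48. The cause of these shifts was not tested.

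With each cell left out, Neurod1 ran from -0.66 to 3.72, from -1.74 to 0.79 and from -4.06 to 0.050. Neurod2 ran from -2.88 to 0.59, from -3.83 to -0.77 and from -1.83 to -0.58, and Neurod6 from -1.34 to 1.66, from -2.24 to 0.46 and from -1.98 to -0.12. With each pool left out, Neurod1 ran from -1.09 to 3.93, from -1.73 to 0.85 and from -3.08 to -0.64. Neurod2 ran from -3.30 to 0.56, from -3.86 to -0.23 and from -2.25 to -0.57, and Neurod6 from -1.75 to 1.81, from -2.26 to 0.39 and from -1.42 to -0.52. All 9 directions held with TMM factors, other pseudocounts, totals over all genes (also chosen after seeing the data), totals without ribosomal and mitochondrial genes, and without libraries under 20000 reads. A pseudocount cannot turn the direction of such a ratio. The TMM factors, 0.955, 0.914 and 0.934, shift it only slightly, so these 2 checks say little about stability.

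The share of cells with Neurod2 was 19.2% at 20000 reads and 15.8% at 5 reads or more in transplanted cells, and 19.7% at 20000 reads and 23.1% at 10 CPM or more, a limit added after seeing the data, in E15 cells. For Neurod6 in E15 cells it was 16.8% and 19.2%. Cells with 2 or more members numbered 3 of 19 transplanted cells at 5 reads or more, and 5 of 15 E15 cells without many-gene libraries. The cascade median by summed CPM was -0.027, -0.33 and -0.037 without many-gene libraries. For E15 over E12 cells it was -0.16 by mean CPM and -0.027 with a filter of 20 CPM. Pearson's r of the deposited values was 0.34 for Neurod6 and Psme2b.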

Other observations

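Of the 78 values above 0 of the 3 genes, 16 were a single read, in libraries of 61665 to 3832671 reads. In 12 of these 16 the other cells of the same pool held at least 100 reads of the same gene in sum, and in 0 of the 16 did they hold none. Whether such reads passed between libraries of a pool was not tested. In the values as the authors deposited them, the median log10 residual of Neurod2 was -0.33 in transplanted cells, -0.32 in E15 cells and 0.21 in E12 cells. For Neurod1 it was -0.16, -0.20 and -0.15, and for Neurod6 -0.33, -0.37 and -0.31. Many cells of each group had no read of a given gene. The residual of such a cell is set by the centring and the removed directions, so these medians are not levels of expression. The directions removed from these residuals overlap the groups: they took 3.31% of the variance in being a transplanted cell, 8.81% for an E15 cell and 24.2% for an E12 cell.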
